A study of Mus musculus with 6 samples.

Results

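The comparison described here set the 2 arrays of tumours given CH5424802 at 20 mg/kg against the 2 arrays of tumours given vehicle. These are 4 of the 6 arrays of the series, chosen by their labels alone. CH5424802, now called alectinib, is an oral inhibitor of the receptor tyrosine kinase ALK. The tumours were subcutaneous xenografts of the human lung adenocarcinoma line NCI-H2228, in which EML4 is fused to ALK, grown in SCID mice, which lack mature B and T lymphocytes. The mice were dosed by mouth with vehicle alone, 4 mg/kg (the low dose) or 20 mg/kg (the high dose), all tumours were collected 6 h after dosing, and total RNA was hybridised to an array of human probe sets. All 3 groups thus share the host strain, the cell line and the time point, and they differ in dose. Whether replicate arrays stand for separate mice is not given in the labels, and p-values then reflect no more than the scatter among these arrays, which may be technical.

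An active ALK fusion sends signals through adaptors to RAS and ERK, to PI3K and AKT, and to STAT3. ERK switches on short-lived genes of its own feedback, such as phosphatases and Sprouty-related proteins, and growth genes such as those for cyclin D1 and MYC. AKT holds FOXO transcription factors out of the nucleus, so that genes driven by FOXO are low while the pathway is active. STAT3 and ERK both feed genes for cytokines, coagulation factors and matrix proteases.

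Values are intensities on a linear scale, with a floor of 4.58. Changes are differences of mean log2 intensity, 20 mg/kg minus vehicle, ± the standard error of the fit, with 2 arrays in each group. For each gene the brightest probe set that names that gene alone was used, and 10271 genes had a mean log2 intensity of at least 4. A gene is called where the adjusted p of limma (Benjamini-Hochberg over the 10271 genes) lies under 0.05.

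The vehicle arrays differed more from each other than the treated arrays did. They lay more than 2-fold apart for 114 genes, against 17 genes for the arrays at 20 mg/kg, and vehicle replicate 2 lay farthest out on the first principal component (-34.8, against -18.9 for replicate 1 and 21.9 and 23.7 at 20 mg/kg). For 18S ribosomal RNA the 5′ control probe set was brighter with vehicle (1713 and 4058) than at 20 mg/kg (573 and 637). The ratio of the 3′ to the 5′ probe set of GAPDH was between 0.844 and 0.993 in all 6 arrays. Of 12 markers of lung adenocarcinoma epithelium all passed the level filter, with NKX2-1 at 2990 to 3422 over the 6 arrays. The basal keratin KRT5 was also high, at 17992 to 25494, while the alveolar surfactant genes SFTPC and SFTPD were near the floor. The endothelial genes CDH5 and VWF, the leukocyte gene PTPRC and the fibroblast genes PDGFRA and PDGFRB were at or near the floor in every array, although the COL1A1 probe set read 31585 to 36324. In a bulk tumour, fewer cells of a type and less RNA per cell cannot be told apart.

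At 20 mg/kg 232 genes were called higher, 2.26% of those tested, and 213 were called lower, 2.07%. Together these were 445 genes, or 4.33%, and for each of them the treated and vehicle arrays did not overlap. The median change among called genes was 2.0-fold upward and 1.99-fold downward, and 115 of the higher and 106 of the lower genes changed at least 2-fold. On the brightest probe sets the far end among called genes was downward: 8 fell at least 8-fold and none rose that far. The called rises passing 4-fold numbered 19, against 28 falls. Over all genes tested the highest value, 3.09, was not called. Counted by size alone, 379 genes (3.69%) lay at least 2-fold higher without overlap of the arrays and 216 (2.10%) as far lower. Without vehicle replicate 2 all 445 genes kept their direction, but the total called over all genes dropped to 104, and 32 of the 232 higher and 44 of the 213 lower genes were still called.

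**Figure D1:**
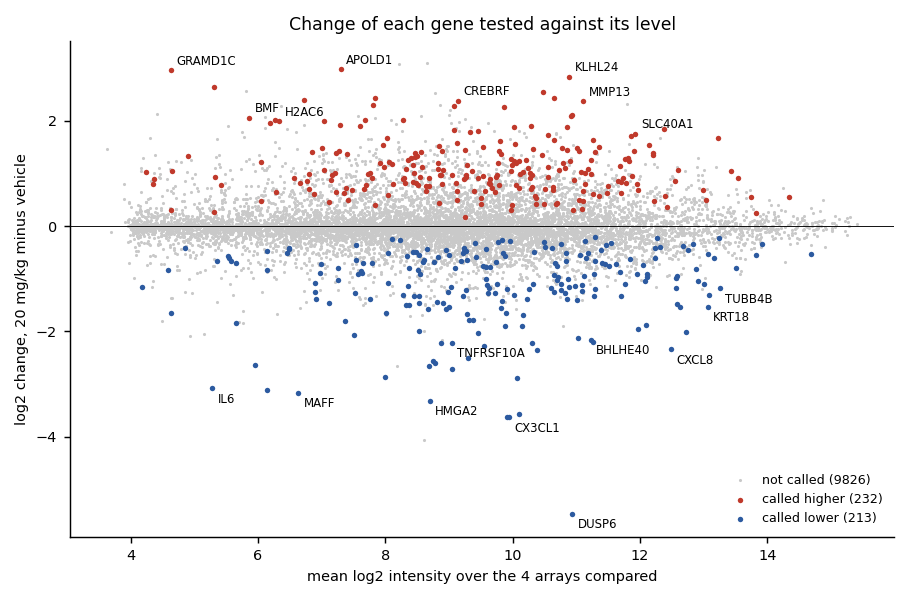
Log2 change at 20 mg/kg (vertical axis) against the mean log2 intensity over the 4 arrays compared (horizontal axis), 1 point per gene tested. The 232 genes called higher (red) reach about the same level range as the 213 called lower (blue), and DUSP6 lies lowest with a change of -5.47.

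Before the other functions, the known outputs of ERK set the scale. Of 17 tested genes of that kind 13 were called lower (76.5%, against 2.07% of all genes) and none higher. Their median change was -1.90 on the log2 scale against 0 for all genes. DUSP6, a phosphatase that removes phosphate from ERK, went from 13346 and 12806 with vehicle down to 312 and 279. SPRED1 and SPRED2, inhibitors of RAS signalling, and the cyclin D1 gene CCND1 fell, with changes of -2.87, -2.67 and -3.56. ALK itself read 488 and 448 with vehicle and 436 and 448 at 20 mg/kg, a change of -0.08 that was not called (adjusted p = 0.73). None of the 17 tested genes of the fusion and its adaptors was called.

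FOXO factors and their targets formed a group with many rises. Of 31 tested genes, with a median of 0.61, 7 were called higher (22.6%) and 2 lower (6.45%), against 2.26% and 2.07% of all genes. The largest was KLHL24, a kelch adaptor of ubiquitin ligases, at 697 and 721 with vehicle, 1803 and 1778 at the low dose and 4857 and 5304 at the high dose. The 3 groups do not overlap, and at the high dose the rise was 2.84 ± 0.05 (adjusted p = 0.0076). CREBRF, a regulator of the transcription factor CREB3, read 254 and 241 with vehicle and 1332 and 1242 at 20 mg/kg, a rise of 2.38 ± 0.05 (adjusted p = 0.0076). The inhibitor of cyclin-dependent kinases CDKN1B (p27) read 3040 and 2635 against 9526 and 10703, and rose by 1.84 ± 0.14. The muscle-wasting F-box gene FBXO32 rose by 1.88 ± 0.19 and SESN3, which encodes a sestrin that restrains mTORC1, by 1.48 ± 0.12. The 3 other probe sets of FBXO32 above the filter ranged from 0.03 to 2.81. IGF1R, the receptor for insulin-like growth factor 1, rose by 0.78 ± 0.08, although 2 other probe sets gave 0.06 and 0.13. The 2 genes called lower were KLF6, a zinc finger factor that is also an immediate early gene (-1.10 ± 0.12), and TRIB1. The median of this list was 0.38 without vehicle replicate 1, 0.72 without vehicle replicate 2, where 2 of the 31 genes were called, and 0.28 when the mean of all probe sets stood for each gene.

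Among 33 tested genes of the PI3K, AKT and mTOR pathway 4 were called higher (12.1%) and 3 lower (9.09%). Over all genes the shares were 2.26% and 2.07%. DDIT4L, a relative of the mTORC1 inhibitor REDD1, read 314 and 335 with vehicle, 335 and 350 at the low dose and 1006 and 932 at the high dose. Its low-dose arrays thus stayed near vehicle while the high-dose arrays stood apart. RICTOR, the defining subunit of mTORC2, rose by 1.11 ± 0.13, and PDPK1, the kinase that activates AKT, by 0.93 ± 0.10, although 2 other probe sets of PDPK1 gave -0.00 and 0.03. The pseudokinase genes TRIB2 and TRIB1, both of which encode AKT partners, fell, with changes of -1.91 ± 0.15 and -1.25 ± 0.14. EIF4EBP1, which encodes a translation repressor that mTORC1 inhibits, read 709 and 714 against 503 and 494, a change of -0.51 ± 0.02.

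**Figure D2:**
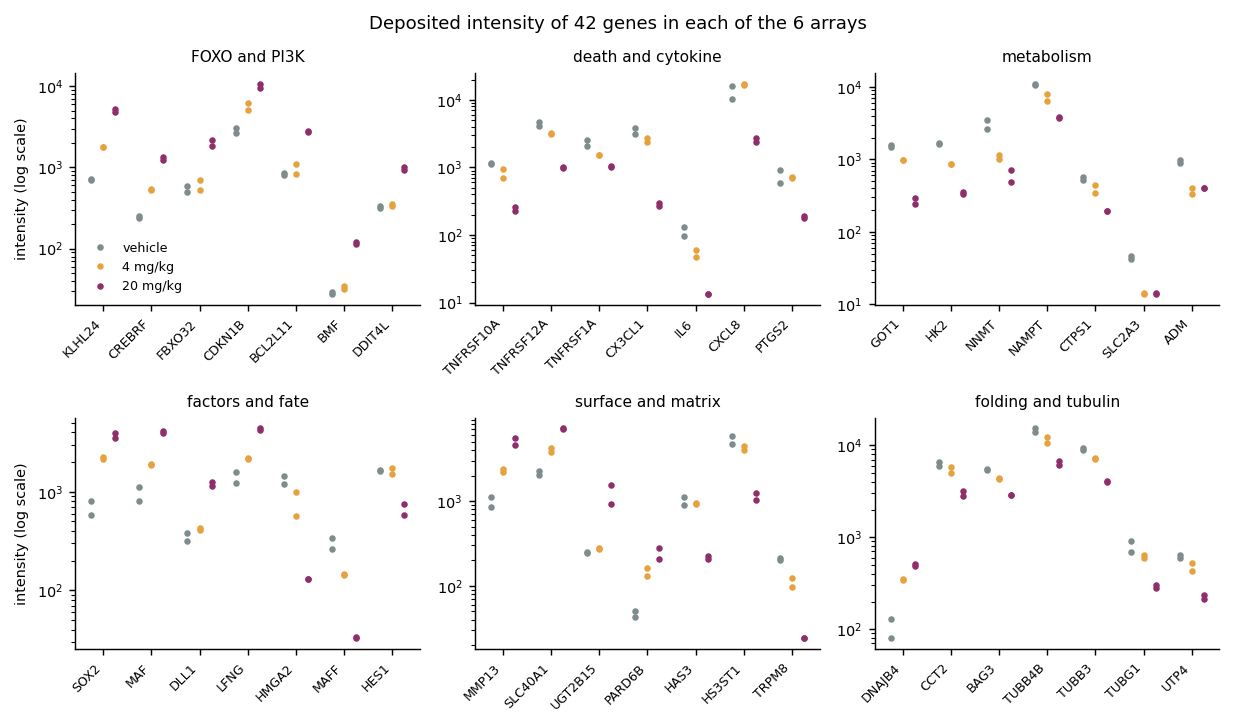
Deposited intensity on a log axis of 42 genes in 6 groups of function, with 1 point per array and vehicle, 4 mg/kg and 20 mg/kg side by side for each gene. The arrays at 20 mg/kg lie apart from vehicle for all 42 genes, and genes differ in where the arrays at 4 mg/kg lie, as with DDIT4L near vehicle and SLC2A3 at the high-dose level.

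Called genes of cell death were higher in one branch and lower in another. In the BCL2 family and its partners 3 of 24 tested genes (12.5%) were called higher and none lower, against 2.26% of all genes called higher. The median of the list was -0.01. Counted by size alone, 2 of its genes lay at least 2-fold higher without overlap of the arrays and 1 as far lower. BMF, a BH3-only protein that promotes death at mitochondria, was low with vehicle at 27.7 and 29.5, stayed at 31.6 and 34.9 at the low dose and reached 122 and 116 at the high dose. That is a rise of 2.06 ± 0.07 (adjusted p = 0.0104). BCL2L11 (BIM), the other BH3-only gene called, read 843 and 810 with vehicle and 2776 and 2722 at 20 mg/kg, a rise of 1.73 ± 0.14. Its 5 other probe sets above the filter ranged from -0.06 to 1.24. APAF1, the core of the apoptosome, rose by 0.43 ± 0.05, and its next probe set gave -0.08.

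Calls among death receptors and ligands went the other way, with 3 of 21 (14.3%) called lower and none higher. Over all genes 2.07% were called lower, and the median of this list was -0.085. TNFRSF10A, a receptor for TRAIL, read 1175 and 1109 with vehicle and 227 and 264 at 20 mg/kg, a change of -2.22 ± 0.17. TNFRSF12A, the receptor for TWEAK, read 4038 and 4668 against 978 and 1011, a change of -2.13 ± 0.08 (adjusted p = 0.0105). TNFRSF1A, the main receptor for TNF, fell by 1.17 ± 0.11. Of the 13 tested genes whose symbol begins with TNFRSF these 3 were the only ones called, and TNFRSF10B, the second TRAIL death receptor, gave -0.00. That family was picked out after its values were seen.

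Among genes for secreted signals some chemokine and cytokine genes fell. Of 22 tested chemokine and cytokine genes 5 were called lower (22.7%, against 2.07% of all genes) and none higher. The median was -0.20. The membrane-bound chemokine gene CX3CL1 read 3128 and 3829 with vehicle, 2350 and 2758 at the low dose and 294 and 266 at the high dose, a change of -3.63 ± 0.15 (adjusted p = 0.0112). IL6 read 132 and 97.1 against 13.3 in both treated arrays, with 60.5 and 47.9 at the low dose. The equal value in both treated arrays may be background of the probe set, so the size of that fall is uncertain. The neutrophil chemokine genes CXCL8 and CXCL1 and the prostaglandin synthase gene PTGS2 fell, with changes of -2.34 ± 0.25, -1.48 ± 0.17 and -1.99 ± 0.25. For CXCL8 and PTGS2 the vehicle arrays lay far apart, at 16261 and 10311 and at 926 and 586, yet both stayed above every treated array. Without vehicle replicate 2 the median of the list was -0.04.

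Receptors and surface ligands that tumour cells use toward immune cells were called in a few cases. IFNGR1 and IFNGR2, the chains of the interferon gamma receptor, fell, with changes of -0.79 ± 0.10 and -0.42 ± 0.05. The 2 other probe sets of IFNGR1 gave -1.01 and 0.03, the latter being the value once probe sets open to cross-hybridisation were left out. CD274, which encodes the checkpoint ligand PD-L1, read 190 and 214 against 111 and 122, a change of -0.79 ± 0.08, but its other probe set gave -0.05. Its relative CD276 fell by 0.66 ± 0.08. The interferon-induced genes IFITM2 and DTX3L fell, with changes of -0.55 ± 0.05 and -0.37 ± 0.03. The guanylate-binding protein gene GBP2, also known as interferon-induced, rose from 118 and 89.0 to 418 and 405, by 2.01 ± 0.16. ERAP2, which trims peptides for presentation, read 2395 in both vehicle arrays, 4235 and 4451 at the low dose and 4322 and 4348 at the high dose, so that both doses lay at one level. IL1RAP, a subunit of the interleukin 1 receptor, fell by 1.38 ± 0.13 on its brightest probe set, while its next probe set rose by 0.69 (adjusted p = 0.048), so the direction for that gene is not settled. In all, 2 of 47 interferon response genes were called lower and 1 higher, and the same counts held for 37 genes of antigen presentation. The shares were 4.26% and 5.41% lower, against 2.07% of all genes, and 2.13% and 2.70% higher, near the 2.26% of all genes.

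Acute phase and coagulation genes had 3 falls (9.09%) and 1 rise (3.03%) among 33 tested, with a median of -0.32. Over all genes 2.07% were called lower and 2.26% higher. F3, which encodes tissue factor, the starter of coagulation, read 2898 and 2579 with vehicle and 602 and 575 at 20 mg/kg. CEBPD, a transcription factor of the acute phase, fell by 1.87 ± 0.18 from 7131 and 9914. Haptoglobin (HP) read 2293 and 1860 with vehicle and 564 to 653 in the 4 treated arrays of both doses. Clusterin (CLU), an extracellular chaperone, rose by 0.73 ± 0.09. Of 30 tested genes of the urokinase system and the metalloproteinases 4 were called lower (13.3%) and 1 higher (3.33%). PLAUR, the urokinase receptor (-1.40 ± 0.04), and SERPINB9, an inhibitor of granzyme B (-1.32 ± 0.15), fell. So did PLAT, tissue plasminogen activator (-0.35 ± 0.03), and TIMP1, an inhibitor of metalloproteinases (-0.34 ± 0.04). The collagenase gene MMP13 was the exception, at 850 and 1107 with vehicle, 2368 and 2209 at the low dose and 5566 and 4537 at the high dose, a rise of 2.37 ± 0.18 (adjusted p = 0.0246).

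Transcription factors moved in both directions, also within a family. In the AP-1, MAF and ATF group of 23 tested genes 4 were called higher (17.4%) and 3 lower (13%). Over all genes the shares were 2.26% and 2.07%. The large MAF factor gene MAF read 1118 and 800 with vehicle and 4149 and 3970 at 20 mg/kg, a rise of 2.10 ± 0.18. The small MAF gene MAFF went from 262 and 339 to 32.5 and 33.7, a change of -3.17 ± 0.14 (adjusted p = 0.0119), and its relative MAFG fell by 0.32 ± 0.02. BACH1, a repressor that pairs with small MAF proteins, rose by 1.04 ± 0.10, and CREB1, a factor that answers to cyclic AMP, by 0.89 ± 0.06. The 5 other probe sets of CREB1 above the filter ranged from -0.25 to 0.83. ATF2 rose by 1.01 ± 0.10 and FOSL2 fell by 0.30 ± 0.03, but the next probe set of each pointed the other way, with -0.05 and 0.51. The 3 other probe sets of FOSL2 ranged from -1.10 to 0.51, with 2 of them lower at 20 mg/kg. In the ETS family outside the ERK outputs EHF, an epithelial factor, rose by 0.91 ± 0.09, GABPA by 1.41 ± 0.16 with a next probe set at -0.02, and ETV6, a repressor, fell by 0.52 ± 0.05.

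Lineage factors included 3 rises (10.3%) and 1 fall (3.45%) among 29 tested genes, against 2.26% and 2.07% of all genes. SOX2, a factor of airway progenitor and stem cells, read 801 and 587 with vehicle, 2148 and 2258 at the low dose and 3504 and 3957 at the high dose. The rise of 2.44 ± 0.18 (adjusted p = 0.0231) separated all 3 groups, and its other probe set gave 1.12. IRX5 and IRX3, homeobox genes, rose by 0.90 ± 0.10 and 0.56 ± 0.04, while the forkhead gene FOXQ1 fell by 1.16 ± 0.08. HMGA2, a chromatin protein of fetal tissues and tumours, read 1201 and 1436 with vehicle, 566 and 997 at 4 mg/kg and 132 in both arrays at 20 mg/kg, a change of -3.32 ± 0.31. In the Notch pathway the ligand gene DLL1 went from 316 and 382 to 1146 and 1256, and LFNG, which adds sugars to Notch, from 1220 and 1577 to 4236 and 4423. HES1, a target gene of Notch signalling, fell by 1.31 ± 0.16. Of 29 genes of the Hippo pathway 4 were called lower (13.8%) and 1 higher (3.45%). The falls were those of the coactivator gene WWTR1 (TAZ, -1.0 ± 0.12), the matrix signal CCN1 (-1.12 ± 0.12), F3 and FOXF2 (-1.02 ± 0.06). AJUBA, a scaffold that inhibits the kinase LATS, rose by 1.09 ± 0.14.

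Most calls among metabolic genes were falls. The largest fall was that of GOT1, the cytosolic aspartate aminotransferase, at 1457 and 1553 with vehicle, 966 in both low-dose arrays and 293 and 241 in the high-dose arrays. The change was -2.50 ± 0.11 (adjusted p = 0.0119), and 3 further genes of the 39 tested for amino acid response and synthesis fell: STC2, a stress-induced stanniocalcin, SRM, which makes spermidine, and ALDH18A1, the first enzyme of proline synthesis. None of the 39 was called higher, and 10.3% were called lower, against 2.07% of all genes.

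Nucleotide and nicotinamide genes had 6 of 28 called lower (21.4%, against 2.07% of all genes) and none higher, with a median of -0.43. CTPS1, which makes CTP, read 516 and 565 with vehicle and 192 in both treated arrays, a change of -1.49 ± 0.13. NAMPT, the rate-limiting enzyme of NAD salvage, read 11043 and 10577 against 3800 and 3660, a change of -1.54 ± 0.12, and NNMT, which methylates nicotinamide, fell by 2.36 ± 0.26. The purine enzymes PPAT and ADSL fell, with changes of -0.46 ± 0.04 and -0.56 ± 0.07, and the nucleoside diphosphate kinase gene NME1 by 0.90 ± 0.09. The 40 tested genes of DNA replication had no call, with a median of -0.05.

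Part of the glucose and hypoxia genes fell. Of 32 hypoxia response genes 7 were called lower (21.9%) and none higher, with a median of -0.39. Of 38 genes of glycolysis and the pentose phosphate path 3 were called lower (7.89%), with a median of -0.28. Over all genes 2.07% were called lower. HK2, the inducible hexokinase, read 1670 and 1644 with vehicle, 853 in both low-dose arrays and 350.9 and 332 at 20 mg/kg, a change of -2.28 ± 0.04 (adjusted p = 0.0076). TIGAR, a phosphatase that draws fructose bisphosphate away from glycolysis, fell by 0.89 ± 0.10. BHLHE40, a clock-linked repressor, fell by 2.16 ± 0.16. The glucose transporter gene SLC2A3 (GLUT3) was at 41.4 and 47.0 with vehicle and at 13.8 to 14.2 in all 4 treated arrays. ADM (adrenomedullin) and ANGPTL4, an inhibitor of lipoprotein lipase, likewise lay as low at 4 mg/kg as at 20 mg/kg. ADM was at 335 and 397 against 406 in both high-dose arrays. ANGPTL4 read 12.7 in both low-dose and 12.1 in both high-dose arrays. At such low values, as for SLC2A3, background of the probe set cannot be told from low expression, so an equal response is not shown. STC1, a stanniocalcin induced by low oxygen, fell by 1.08 ± 0.08. None of the 60 tested genes of the TCA cycle and oxidative phosphorylation was called, and their median was -0.13.

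Genes of lipid metabolism and detoxification were called in both directions. The cholesterol efflux pump gene ABCA1 read 629 and 728 with vehicle, 640 and 626 at the low dose and 1578 and 1589 at the high dose, a rise of 1.23 ± 0.08. AGPAT2, an enzyme of triglyceride and phospholipid synthesis, rose by 0.71 ± 0.04. ELOVL6, a fatty acid elongase, and ACOX2, a peroxisomal oxidase, fell, with changes of -0.52 ± 0.02 and -0.91 ± 0.05. The other probe set of ELOVL6 above the filter gave -0.03. HSD17B6 and HSD17B11, dehydrogenases that act on steroids, rose by 1.93 ± 0.13 and 1.54 ± 0.13. AKR1B10, an aldo-keto reductase, fell from 8460 and 8570 to 4017 and 4565, and it stayed at 8164 and 9517 at 4 mg/kg.

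Lists of genes that make and fold proteins differed in how many of their genes were called. Of 56 tested ribosome biogenesis genes 4 were called lower (7.14%, against 2.07% of all genes) and none higher, with a median of -0.20. They were UTP4 and NOP16, factors of ribosomal RNA processing (-1.47 ± 0.12 and -1.28 ± 0.07), CCDC86, a nucleolar protein (-0.70 ± 0.02), and the acetyltransferase NAT10 (-0.65 ± 0.05). Mitochondrial ribosomal proteins had a median of -0.25 over 72 genes, with 1 call, MRPL47 (-0.46 ± 0.05, with its other probe set at -0.06). The proteasome had a median of -0.25 over 45 genes, with PSMA7 the one call (-0.20 ± 0.02). With 1 gene each, these shares lie near the 2.07% of all genes. Cytosolic ribosomal proteins had a median of -0.01 over 56 genes and 1 call, RPL3 (-0.23 ± 0.03).

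Among 60 translation factors the initiation factor genes EIF4G1, EIF3B and EIF3I were called lower (-0.63 ± 0.04, -0.72 ± 0.09 and -0.28 ± 0.02), as was EIF4EBP1, while EIF4B (0.47 ± 0.05) and the stress kinase gene EIF2AK3 (0.56 ± 0.07) rose. Other probe sets of EIF4B gave -0.12 and 0.14. The CCT chaperonin, which folds tubulin and actin, had CCT2 at 5905 and 6619 with vehicle and 2835 and 3220 at 20 mg/kg, and CCT3 fell by 0.61 ± 0.07. These were the 2 called among 8 subunits, whose median was -0.32. Genes with tubulin-like symbols, picked out with the CCT subunits after their values were seen, had 4 of 18 tested called lower and none higher. Matched by symbol, the 18 include genes that encode no tubulin, such as TUBGCP2, TUBGCP3 and TUBGCP4. TUBB4B, a broadly expressed beta tubulin, read 13994 and 15350 with vehicle and 6157 and 6798 at 20 mg/kg, and TUBB3 read 8902 and 9412 against 3980 and 4116. TUBB6 and TUBG1, the gamma tubulin of microtubule nucleation, fell, with changes of -1.16 ± 0.14 and -1.46 ± 0.16. The co-chaperone genes BAG3 and HSPH1 fell, with changes of -0.90 ± 0.03 and -0.66 ± 0.08, whereas DNAJB4, an HSP40, rose from 129 and 79.3 to 491 and 509.

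Of 268 tested zinc finger genes with ZNF symbols 8 were called higher and none lower, with a median of 0.04, a share near the 2.26% of all genes called higher. They were ZNF254, ZNF292, ZNF677, ZNF404, ZNF682, ZNF112, ZNF655 and ZNF599, and their rises ran from 1.99 ± 0.20 for ZNF254 down to 0.48 ± 0.03 for ZNF599. Counted by size alone, 16 of the 268 ZNF genes lay at least 2-fold higher without overlap of the arrays and 1 lay as far lower. The first share lies above the 3.69% of all genes and the second under the 2.10%. Histone genes had 2 of 16 called higher (12.5%). H2AC6 read 40.4 in both vehicle arrays and 132 and 196 at 20 mg/kg, and H2BC5 read 1279 and 1214 against 3149 and 2758. The other probe set of H2BC5 gave 0.10. Near-identical histone copies may bind the same probes. Of 94 chromatin regulators CHD6, HMGN3 and ARID4B rose (1.67 ± 0.21, 1.34 ± 0.13 and 0.88 ± 0.11), the last with a next probe set at -0.01, and HMGA2 fell. Other probe sets of CHD6 gave 0.08 and 0.21. The shares of this list were 3.19% higher and 1.06% lower, against 2.26% and 2.07% of all genes. Splicing genes had 3 of 61 called higher (4.92%, against 2.26% of all genes). They were MBNL2 (1.47 ± 0.18, with 4 other probe sets from 0.0 to 1.55), SRSF10 (1.16 ± 0.08, with a next probe set at -0.01) and RBM39 (0.86 ± 0.10). TOP2A, the mitotic topoisomerase, was the one call among 45 mitosis genes (2.22%, near the 2.26% of all genes called higher). It read 852 and 698 with vehicle, 2402 and 2794 at the low dose and 1990 and 2283 at the high dose. By size alone 5 of the 45 mitosis genes lay at least 2-fold higher without overlap, a share above the 3.69% of all genes, and none as far lower. Besides CDKN1B, the cyclin-dependent kinase inhibitor gene CDKN1C and CCNG1, a target gene of p53, rose by 0.81 ± 0.09 and 0.68 ± 0.03. KLHL24, ZBTB44 and ZBTB10 were the 3 genes called of 67 with kelch or BTB domains, all higher (4.48%, against 2.26% of all genes). By size alone 9 of the 67 lay at least 2-fold higher without overlap, a share above the 3.69% of all genes, and none as far lower.

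Epithelial structure genes had 4 rises (8.33%) and 2 falls (4.17%) among 48 tested, against 2.26% and 2.07% of all genes. PARD6B, a polarity protein, went from 50.8 and 42.4 to 210 and 282, a rise of 2.39 ± 0.22. The desmosome genes DSC2 and DSP rose by 0.79 ± 0.09 and 0.55 ± 0.06, and the tight junction gene MARVELD2 by 0.60 ± 0.04. KRT18, a keratin of simple epithelia, read 14435 and 14820 with vehicle and 4355 and 5822 at 20 mg/kg, and GJB2, a gap junction protein, fell by 1.56 ± 0.10. The 6 measured markers of basal or squamous cells, of which none was called, summed to 34607 and 46512 with vehicle and to 30042 and 29092 at 20 mg/kg, and their part in these values was not tested. No gene was called among 21 integrins or 30 mesenchymal genes. ITGAV and ITGB8, the integrins with the highest values, gave 1.12 (adjusted p = 0.082) and 1.95 (adjusted p = 0.068), with vehicle arrays at 7631 and 5229 and at 529 and 304.

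Among 85 tested enzymes that build or modify sugar chains 6 were called lower (7.06%) and 2 higher (2.35%). Over all genes the shares were 2.07% and 2.26%. HAS3, a hyaluronan synthase, read 901 and 1128 with vehicle, 914 and 939 at the low dose and 208 and 227 at the high dose. HS3ST1, which sulfates heparan, read 5861 and 4758 against 1042 and 1245. The changes were -2.22 ± 0.13 and -2.21 ± 0.16, and ST3GAL4, a sialyltransferase, the mucin-type enzymes GCNT3 and GALNT2 and B3GNT9 fell, with changes of -1.31, -1.27, -0.23 and -0.43. B3GNT5, which starts lacto-series glycolipids, rose by 1.39 ± 0.12, with other probe sets at 0.0 and 0.69. UGT2B15, a glucuronosyltransferase with near-identical relatives that may bind the same probes, read 249 and 244 with vehicle, 282 and 270 at the low dose and 1545 and 921 at the high dose. In the matrix the proteoglycan gene VCAN fell by 1.03 ± 0.12. THBS1 (thrombospondin 1) fell by 1.43 ± 0.14 on its brightest probe set and gave 0.09 once probe sets open to cross-hybridisation were left out, and the basement membrane gene NID1 rose by 0.31 ± 0.03 with a next probe set at -0.49. The semaphorin receptor genes NRP1, PLXNA2 and PLXND1 fell, with changes of -1.78 ± 0.10, -0.68 ± 0.03 and -0.50 ± 0.02. That makes 3 of 25 tested guidance genes lower (12%) and none higher. The receptor tyrosine kinase genes EPHA4, EPHA2 and EGFR fell, with changes of -1.64 ± 0.14, -1.46 ± 0.12 and -0.74 ± 0.07.

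Of 194 tested solute carriers 1 was called higher (0.515%) and 4 lower (2.06%), against 2.26% and 2.07% of all genes, so these shares of calls lie under or near those of all genes. By size alone 9 of the 194 lay at least 2-fold higher without overlap and 9 as far lower. Those shares lie above the 3.69% and 2.10% of all genes. Of 69 tested ion channels and pumps 3 were called higher (4.35%) and 2 lower (2.90%). The riser was SLC40A1, ferroportin, the cell's iron exporter, at 2252 and 2001 with vehicle, 3774 and 4202 at the low dose and 7231 and 7073 at the high dose, a rise of 1.75 ± 0.09 (adjusted p = 0.0141). The falls were those of SLC2A3, described above, SLC6A14, a carrier of neutral and basic amino acids (-1.19 ± 0.09), the organic anion carrier SLCO3A1 (-0.91 ± 0.06) and the zinc carrier SLC39A3 (-0.67 ± 0.04). The cold-sensing channel gene TRPM8 read 212 and 202 with vehicle, 124 and 98.3 at 4 mg/kg and 24.0 in both arrays at 20 mg/kg, a change of -3.11 ± 0.13 (adjusted p = 0.0112). TRPC6, a calcium channel, fell by 0.75 ± 0.07, and the potassium channel genes KCNK1 and KCNE4 and the glutamate receptor gene GRIN2A rose by 1.24 ± 0.15, 0.91 ± 0.12 and 0.97 ± 0.10. In G protein signalling 3 of 73 genes were called lower (4.11%, against 2.07% of all genes) and none higher. They were the adenosine receptor gene ADORA2B (-0.68 ± 0.09), the G protein subunit gene GNA15 (-0.80 ± 0.04) and RGS19, which shortens G protein signals (-0.42 ± 0.05).

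Several of the largest changes lay outside these functions. APOLD1, a gene of vascular barrier function, read 47.3 and 66.7 with vehicle, 72.4 and 126 at the low dose and 442 and 446 at the high dose, a rise of 2.98 ± 0.35. GLCCI1, a glucocorticoid-induced gene, went from 545 and 638 to 3515 and 3410, with other probe sets between 1.48 and 4.03. The adaptor gene NCK1, the oxidation resistance gene OXR1 and the leucine-rich repeat gene LRRC31 rose by 2.09 ± 0.20, 2.26 ± 0.12 and 2.44 ± 0.15. GRAMD1C, a lipid transfer protein gene, lay within 1 log2 unit of the floor with vehicle, at 8.83 and 8.97, and reached 49.0 and 97.2. Of the falls, ANKRD22 went from 1013 and 1160 to 166 and 192, by 2.60 ± 0.15, and the microRNA host gene MIR100HG from 166 and 144 to 24.0 and 25.8. The tyrosine phosphatase gene PTPRE fell by 2.04 ± 0.11, and ERRFI1, an inhibitor of EGFR, by 1.96 ± 0.20.

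**Figure D3:**
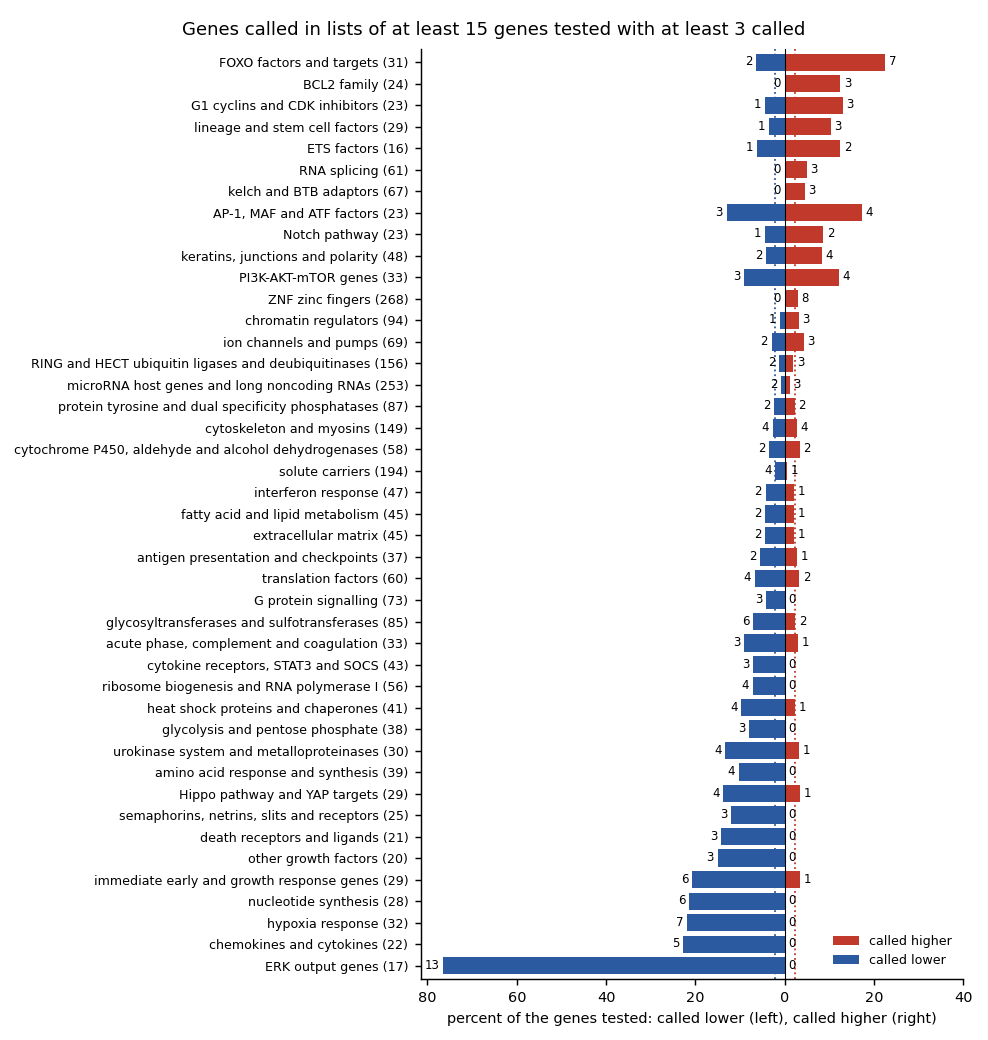
Percent of the genes tested that were called lower (left, blue) and higher (right, red) in the 43 lists with at least 15 genes tested and at least 3 called, with the number of genes called at each bar and of genes tested in brackets. Dotted lines mark the 2.07% and 2.26% of all genes, and ERK output genes reach farthest to the left and FOXO factors and targets farthest to the right.

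The other probe sets of a called gene followed the brightest one to varying extents. For the 232 genes called higher, 131 had another probe set above the level filter, 240 in all, and 74 of these (30.8%) rose at least 1.5-fold. For the 213 genes called lower, 99 had another, 161 in all, and 90 of these (55.9%) fell at least 1.5-fold. The other probe sets had a median change of 0.34 beside 0.99 for the main probe sets of the same genes called higher, and -0.72 beside -1.03 for those called lower. They are dimmer than the main probe set by the rule that chose it, and the difference between the directions was not tested. KLHL24 shows the range within 1 gene, with 4 others from 0.10 to 3.74, as does NCK1 with 3 from 0.08 to 0.74.

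**Figure D4:**
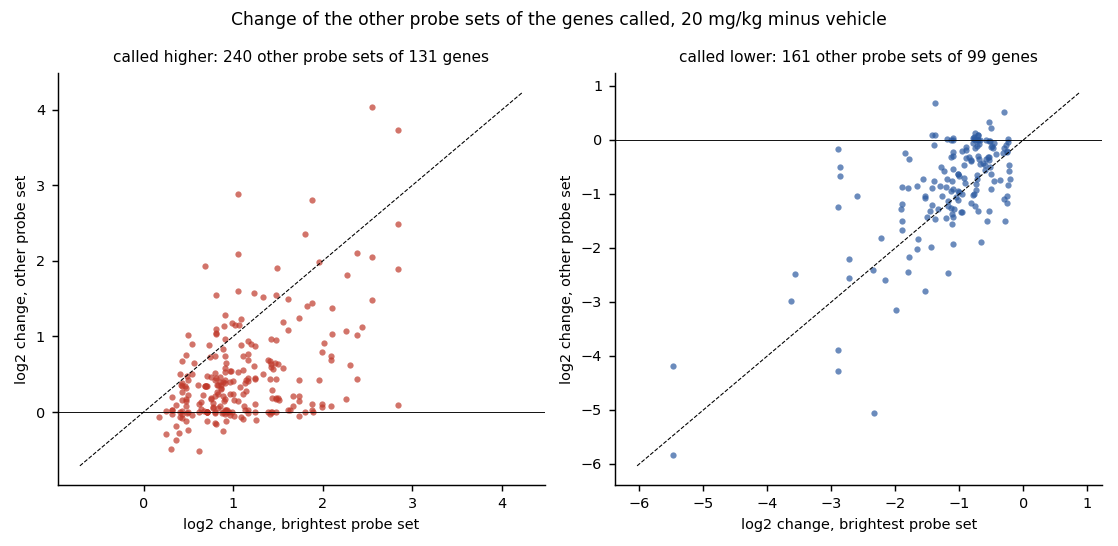
Log2 change of each further probe set above the level filter (vertical axis) against that of the brightest probe set of the same gene (horizontal axis), for genes called higher (left, red) and lower (right, blue). The dashed line marks equal change, and more of the 240 points at left than of the 161 at right lie near 0.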

How the data were processed

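The deposited values are intensities on a linear scale for 54675 probe sets. The submitters' processing notes name GCRMA and R 2.10.0, and GCRMA leaves many probe sets at 1 shared floor and some genes with equal values in both arrays of a group (1593 genes tested with vehicle). Probe sets were named through the platform annotation: 41097 list 1 gene, 1801 several and 11777 none. Here log2 of the deposited intensity entered a linear model in limma 3.58.1 under R 4.3.3 (moderated by eBayes, 1 coefficient per group over all 6 arrays, two-sided, 3 residual degrees of freedom), a procedure tested on simulated data. The number of arrays limits the precision. The genes described and the 77 gene lists were chosen with earlier results of these data known, so no list was tested as a set. Genes named were drawn mostly from the 25 largest rises and falls called, up to 8 called members of each list (2 uncalled where fewer passed), the 10 brightest called genes, ALK, EML4, markers, and genes in counts of 5 or fewer. Not every gene picked in this way is described, and that further choice followed no fixed rule. Genes listed but without a single-gene probe set were not analysed here. Arrays at 4 mg/kg are given as levels; doses were not tested against each other. Alternatives covered the arrays, the probe set of a gene, the filter, the scaling and the moderation.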

Additional observations from a re-analysis of the deposited data

How the results depend on the processing

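Genes with an unadjusted p under 0.05 numbered 2486 in the main fit and between 823 and 3166 over 19 alternatives, the lowest being that on the next brightest probe set, and the 445 genes called (232 higher, 213 lower, 221 at least 2-fold) changed as follows. Leaving out 1 array at a time gave 5 to 802 calls, 4 to 350 higher, 1 to 452 lower and 5 to 279 at least 2-fold. The highest counts came without vehicle replicate 1, and without vehicle replicate 2 there were 104, 42, 62 and 51. Without 20 mg/kg replicate 1 the total was 19, and without 20 mg/kg replicate 2 it was 5. Without either array at 4 mg/kg it was 136, as with the 4 compared arrays alone (68 higher, 68 lower, 62 at least 2-fold). Centring each array gave 1958 calls (1023, 935 and 574) and quantile normalization 1536 (836, 700 and 512). Without genes equal in all 3 groups, counts were 819 (459, 360 and 382), and with no level filter, which tests 19775 genes, 57 (22, 35 and 24). The next brightest probe set gave 91 (41, 50 and 42) over 4117 genes, probe sets not open to cross-hybridisation 285 (125 lower and 146 at least 2-fold), and the mean of all probe sets 145 at least 2-fold. With the replicate number as a block, the counts were 93 (36, 57 and 50). Deviations of same-numbered vehicle and 20 mg/kg arrays correlated at -0.12, and with these numbers crossed, an alternative chosen after seeing the data, limma called 0 genes (0 higher, 0 lower, 0 at least 2-fold), with 2295 at an unadjusted p under 0.05. Other alternatives kept these counts within 1.5 times. Of the genes named, those that changed sign did so mainly on the next brightest probe set: APAF1 (-0.078), ARID4B (-0.006), ATF2 (-0.049), BCL2L11 (-0.056), FOSL2 (0.51), GABPA (-0.019), IL1RAP (0.69), NID1 (-0.49) and SRSF10 (-0.01). NID1 also did when its probe sets were averaged (-0.06), and IFNGR1 (0.025) and THBS1 (0.092) without probe sets open to cross-hybridisation. The cause of these changes was not tested. Array number, not read depth, limits these data.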
